A study of Mus musculus with 30 samples.

Results

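The retinas of mice carrying a single R90W allele of Crx were compared with those of wild-type (WT) mice at postnatal day 21 (P21). The comparison used 6 of the 30 libraries of the series, chosen by their genotype and age labels: R90W/+ at P21 (n = 3) and WT at P21 (n = 3). All mice were of the C57BL6/J strain, to which the mutant lines had been backcrossed, and the P21 WT animals were drawn from littermates of the Crx mutants. Each library was made by pooling the 4 retinas of 1 male with 1 female animal, so a library is a pair of animals rather than an individual. R90W is a knock-in substitution in the homeodomain of CRX, present in every cell of the animal and heterozygous here. The series as a whole compared Crx mutations of different classes by RNA-seq of whole retina at P10 and P21, and the R90W/+ line stands for mutations that weaken the binding of CRX to DNA. The R90W/+ and WT libraries at P10, and the P21 libraries of 2 other heterozygous lines (E168d2neo/+ and E168d2/+, which share a frameshift allele that truncates CRX and differ in a neo cassette left in the gene), served as points of reference.

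CRX is a homeodomain transcription factor of rod and cone photoreceptors. It binds TAATCC-like letters in promoters and enhancers and, together with NRL and NR2E3 in rods and with RORB, RXRG and THRB in cones, drives the genes of light detection, the outer segment and the ribbon synapse. The mouse retina is dominated by rods, while cones are a small minority, and at P21 photoreceptors are close to their adult state.

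The values are CPM, a gene's reads relative to those of all genes in the same library, scaled to a common total. A gene entered the comparison at 5 CPM or more in all 3 libraries of either group, which 11846 genes did besides 10 crystallins. Differences were tested with limma on log2(CPM + 0.1), so that the ratios of low genes are slightly understated. A call needed both a Benjamini-Hochberg false discovery rate (FDR) no higher than 0.05 and at least a 2-fold change.

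The promoters of 5 genes on which the result turns are shown from 250 bases before to 50 bases after the RefSeq start of the gene in build GRCm38.p6. Zan, Mc1r and Ppara were lower in R90W/+ at both ages, Crx is the mutated gene, and Otx2 is a homeodomain relative of Crx that was higher. Capitals mark TAATCC or its reverse complement GGATTA, the core letters that CRX binds, searched on both strands; matches of the 2 can share letters where they meet.
Zan (chr5:137477015-137477314, minus strand): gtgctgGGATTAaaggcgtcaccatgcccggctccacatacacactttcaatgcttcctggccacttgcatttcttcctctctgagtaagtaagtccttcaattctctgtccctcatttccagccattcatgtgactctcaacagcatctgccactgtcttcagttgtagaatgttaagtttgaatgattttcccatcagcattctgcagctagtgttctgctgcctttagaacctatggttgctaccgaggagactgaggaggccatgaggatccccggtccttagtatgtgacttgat
Mc1r (chr8:123406832-123407131, plus strand): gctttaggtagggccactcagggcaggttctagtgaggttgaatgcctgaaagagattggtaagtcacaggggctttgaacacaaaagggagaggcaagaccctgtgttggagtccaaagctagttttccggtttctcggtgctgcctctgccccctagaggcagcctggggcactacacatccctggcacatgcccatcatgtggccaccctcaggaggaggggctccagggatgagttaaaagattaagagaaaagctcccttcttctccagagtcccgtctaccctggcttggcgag
Ppara (chr15:85735526-85735825, plus strand): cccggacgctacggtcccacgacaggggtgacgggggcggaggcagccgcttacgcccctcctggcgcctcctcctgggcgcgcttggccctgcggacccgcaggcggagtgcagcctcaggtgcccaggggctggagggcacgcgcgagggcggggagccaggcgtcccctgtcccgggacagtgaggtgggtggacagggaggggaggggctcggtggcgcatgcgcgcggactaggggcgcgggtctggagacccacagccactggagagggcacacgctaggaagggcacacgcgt
Crx (chr7:15879906-15880205, minus strand): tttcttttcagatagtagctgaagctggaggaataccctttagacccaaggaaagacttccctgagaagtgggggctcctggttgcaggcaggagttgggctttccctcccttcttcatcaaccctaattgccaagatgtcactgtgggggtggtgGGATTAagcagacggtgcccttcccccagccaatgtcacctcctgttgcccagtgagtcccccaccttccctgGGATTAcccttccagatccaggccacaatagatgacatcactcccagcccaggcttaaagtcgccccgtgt
Otx2 (chr14:48665060-48665359, minus strand): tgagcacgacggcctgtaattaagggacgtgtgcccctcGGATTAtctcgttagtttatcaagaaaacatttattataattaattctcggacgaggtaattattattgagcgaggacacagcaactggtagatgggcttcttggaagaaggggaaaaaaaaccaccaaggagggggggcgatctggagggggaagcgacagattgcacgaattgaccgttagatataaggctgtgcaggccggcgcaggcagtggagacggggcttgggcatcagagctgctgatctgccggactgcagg
The Zan window held 1 match far from the start, the Crx window 2 matches, and the Otx2 window 1 match. Several starts are listed for Otx2, and the windows of those not shown held no match. Mc1r and Ppara had none in this window. A match was held by 7.06% of all 32851 RefSeq promoters. Of genes tested here, 8437 had a promoter in the table and 7.1% of these had a match in at least 1 of them. The count was 23 of 186 matched genes (12.4%) for genes lower in R90W/+ by FDR, 2 of 44 (4.55%) for genes higher by FDR, and 2 of 17 among the genes called lower, the second being Gm11961. A match of letters describes the sequence and does not show a site in use.

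The libraries held 18.8 to 23.7 M reads on genes, going by the CPM value of a single read, so that 5 CPM stood for 93.8 to 118.7 reads. Crystallins, the structural proteins of the lens, were high in some mutant libraries. They made up 1.44%, 0.0322% and 2.80% of the CPM total in R90W/+ replicates A, B and C, and 0.00486% to 0.00612% in WT (exact two-sided permutation test, p = 0.1, the smallest that 3 against 3 libraries can give). Among the reference libraries, crystallins made up 1.32% in E168d2neo/+ P21 replicate C and 0.131% in R90W/+ P10 replicate C. The 8 crystallins called higher in R90W/+ at P21 had log2 ratios of 6.65 to 8.27, and crystallins are left out of all counts below. Genes such as Cry1, Cry2, Crym and Cryz, whose symbols begin alike but which are not lens structural genes, stayed in. WT replicate A stood against its description as a pool of both sexes, with 3.05 CPM of Xist, the RNA that coats the inactive X of females, where the other 5 libraries held 1500 to 1710 CPM. Counts of genes called lower are given below with and without replicate A of WT and the crystallin-rich replicates A and C of R90W/+.

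The mutated gene itself was measured at 1151, 1149 and 1107 CPM in WT and 1389, 1505 and 1342 CPM in R90W/+. All 3 mutant libraries lay above all 3 WT libraries, an order seen in 9.05% of all genes tested, and Crx RNA rose to 1.24-fold by the means (log2 ratio 0.31, SE 0.06, FDR 0.0207, limma). These counts do not separate the 2 alleles. The FDR was above 0.05 in 6 of 18 alternative settings, where it reached at most 0.116.

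The R90W/+ retina at P21 differed from WT mainly by genes that fell. Of the 11846 genes, 26 were called lower (0.219%) and 0 were called higher (0.0%). With the FDR alone, 275 genes were lower (2.32%) and 62 were higher (0.523%), and an unadjusted p under 0.05 was reached by 1181 lower and 722 higher genes. The median log2 ratio over all genes was -0.005, a value that scaling to a common total tends to hold near 0. Scaled without crystallins, the FDR alone gave 230 lower and 95 higher genes, with the same 26 called lower. Among genes that passed the FDR, the median fall was -0.48 and the median rise 0.36 in log2, and a change of 1.5-fold or more was seen in 97 of the lower but only 6 of the higher genes. In all 26 called genes the 3 mutant libraries lay below the 3 WT libraries. The groups overlapped in none of the 337 genes that passed the FDR, so lack of overlap came with passing the test and adds nothing to it. Over all genes tested, 12.7% had all mutant libraries below all WT libraries.

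**Figure D1:**
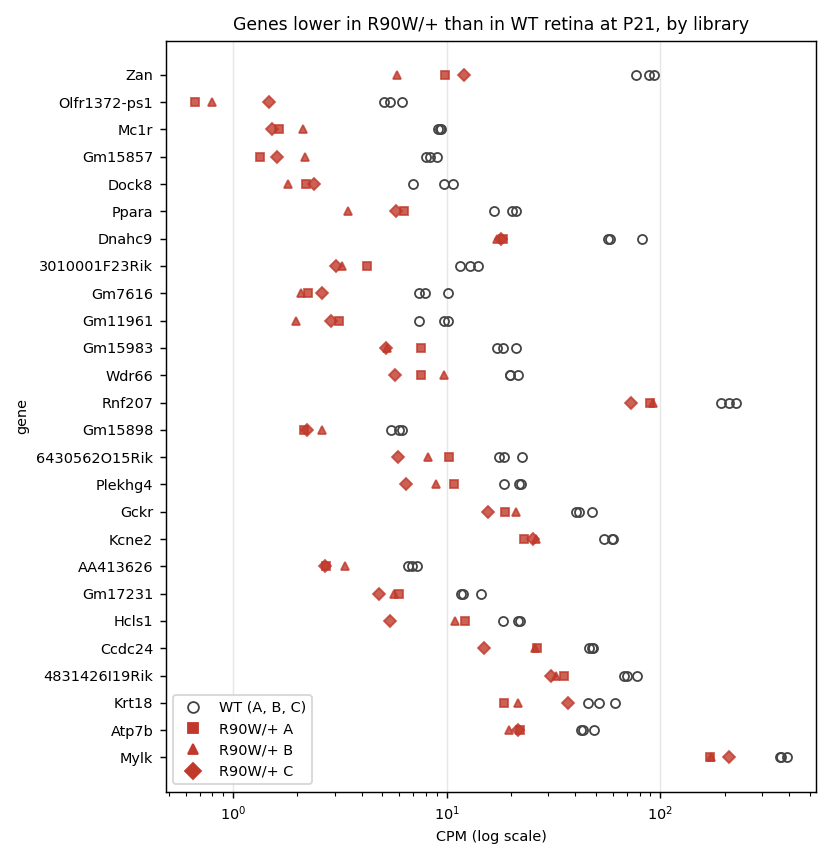
Each row is a gene of the 26 called lower in R90W/+ at P21, ordered by log2 ratio, with CPM on a log axis; open circles are the 3 WT libraries and filled symbols the R90W/+ libraries A, B and C. No filled symbol overlaps the open circles of its row, from Zan at the top to Mylk at the bottom, and the crystallin-poor replicate B lies with A and C.

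Zan showed the largest fall. It encodes zonadhesin, known as a sperm membrane protein that binds the egg coat. Its level was 88.9, 77.3 and 93.1 CPM in WT and 9.80, 5.86 and 12.1 CPM in R90W/+ (log2 ratio -3.27, SE 0.21, FDR 0.000205, limma). The mutant mean was 10.7% of the WT mean and the groups were far apart. In a fit that pooled all P21 groups the FDR of Zan was 0.135 at the same ratio. The pooled spread there includes E168d2/+ replicate B, which held 37.9 CPM of Zan beside 0.669 and 1.05 CPM in replicates A and C.

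Mc1r, the melanocortin receptor known from pigment cells, stood at 9.46, 9.29 and 9.09 CPM in WT and 1.64, 2.13 and 1.52 CPM in R90W/+ (log2 ratio -2.35, SE 0.15, FDR 0.000205). Ppara, a nuclear receptor that switches on fatty acid oxidation, stood at 21.1, 16.6 and 20.2 CPM in WT and 6.31, 3.47 and 5.77 CPM in R90W/+ (log2 ratio -1.91, SE 0.20, FDR 0.00182). Neither gene's groups overlapped, and both kept their calls in all 18 alternative settings. Markers of pigment epithelium and melanocytes varied among libraries: the sum of the 16 measured was 417 to 816 CPM in WT and 205 to 567 CPM in R90W/+, and 0 of the 14 tested passed the FDR. Pmel, a pigment granule protein, was at 33.0, 132 and 149 CPM in WT and 12.1, 34.7 and 73.5 CPM in R90W/+. What the fall of Mc1r owes to pigment cells was not tested.

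Dnahc9, an axonemal dynein heavy chain, was at 82.6, 56.8 and 58.4 CPM in WT and 18.3, 17.3 and 17.9 CPM in R90W/+ (log2 ratio -1.86, SE 0.13, FDR 0.000209). Wdr66, a protein of motile cilia and sperm tails, was at 19.8, 21.6 and 19.8 CPM in WT and 7.60, 9.70 and 5.73 CPM in R90W/+ (log2 ratio -1.43, SE 0.16, FDR 0.00243). Mylk, the myosin light chain kinase, was the most abundant gene called, at 365, 369 and 391 CPM in WT and 170.3, 173 and 209 CPM in R90W/+ (log2 ratio -1.03, SE 0.08, FDR 0.000301). Krt18, an epithelial keratin, was at 51.9, 46.1 and 61.3 CPM in WT and 18.6, 21.5 and 37.0 CPM in R90W/+, with replicate C well above A and B (log2 ratio -1.10, SE 0.22, FDR 0.0314). The actin-binding protein Hcls1, known from blood cells, was at 21.96, 21.6 and 18.3 CPM in WT and 12.2, 10.9 and 5.44 CPM in R90W/+, with replicate C below the others (log2 ratio -1.18, SE 0.25, FDR 0.0421). The FDR of Krt18 and Hcls1 was above 0.05 in 8 and 6 of 18 alternative settings, respectively. The exchange factors Dock8 and Plekhg4, which activate small GTPases, had log2 ratios of -2.03 (SE 0.18, FDR 0.000686) and -1.27 (SE 0.17, FDR 0.0053).

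Kcne2, an accessory subunit of potassium channels, was at 59.6, 60.4 and 54.7 CPM in WT and 23.0, 26.2 and 25.3 CPM in R90W/+ (log2 ratio -1.23, SE 0.07, FDR 0.000205). Its SE was among the smallest of the called genes, and the libraries within each group were close. Atp7b, the copper pump mutated in Wilson disease, was at 43.5, 42.7 and 48.8 CPM in WT and 22.1, 19.7 and 21.7 CPM in R90W/+ (log2 ratio -1.09, SE 0.08, FDR 0.000215). Gckr, which holds glucokinase in check, was at 41.8, 40.3 and 48.0 CPM in WT and 18.7, 21.2 and 15.6 CPM in R90W/+ (log2 ratio -1.23, SE 0.11, FDR 0.000799). Rnf207, a RING finger protein known from heart muscle, was at 194, 210.1 and 227 CPM in WT and 89.2, 92.3 and 73.2 CPM in R90W/+ (log2 ratio -1.31, SE 0.09, FDR 0.000209). Of these, only Gckr went above an FDR of 0.05, in the fit that pooled the P21 groups (FDR 0.108).

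The remaining 12 called genes have no well-described role or are not protein-coding: Olfr1372-ps1, Gm15857, 3010001F23Rik, Gm7616, Gm11961, Gm15983, Gm15898, 6430562O15Rik, AA413626, Gm17231, Ccdc24 and 4831426I19Rik, with log2 ratios from -2.46 to -1.12. In the mm9 gene annotation 17 of the 26 are protein-coding, and 18 overlap another annotated gene on either strand. Gm15857 lies opposite Wdr66, and Gm7616 lies opposite Nr2e3, so reads of such partners may be divided between them. Gm7616 was at 10.1, 7.94 and 7.43 CPM in WT and 2.26, 2.08 and 2.61 CPM in R90W/+, while Nr2e3, the rod nuclear receptor, was at 799.6, 593 and 581 CPM in WT and 576, 631 and 580.2 CPM in R90W/+ with overlapping groups (log2 ratio -0.13, SE 0.11, FDR 0.633).

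Most of the called genes were weakly expressed. Their mean CPM in WT ran from 5.57 to 375, with a median of 20.0 beside 36.6 over all genes tested, and 16 of the 26 were under 25 CPM. Just outside the fold limit stood Glp2r, named after its values were seen, at 318, 256 and 258 CPM in WT and 134, 139.8 and 141 CPM in R90W/+ (log2 ratio -0.998, FDR 0.0004). Just inside it stood Mylk.

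The calls were checked without the libraries in doubt. Without WT replicate A, 28 genes were called lower, 23 of them among the 26. Leaving out R90W/+ replicate A or C gave 31 genes each, 24 of them among the 26. With replicates A and C both left out, the single crystallin-poor library B against WT gave 29 genes, 24 of them among the 26, on the assumption that B varies as WT does. Over the 6 fits that each left out 1 library, 22 of the 26 were called every time; the others were Hcls1, Ccdc24, Krt18 and Mylk.

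The 62 genes that passed the FDR upward changed little. The 10 largest rises with no overlap between groups were those of Shisa2, Insm1, Nipal1, Pter, Tmem26, Marveld3, Foxn2, Nr6a1, Ttyh2 and Xk, from 0.85 down to 0.53 in log2. Shisa2, which holds back maturation of Wnt and FGF receptors, was at 21.6, 22.8 and 29.4 CPM in WT and 43.7, 39.4 and 50.0 CPM in R90W/+ (log2 ratio 0.85, SE 0.12, FDR 0.00728). Insm1, a zinc finger factor of young neurons and endocrine cells, was at 39.5, 34.9 and 33.6 CPM in WT and 51.4, 60.8 and 80.9 CPM in R90W/+ (log2 ratio 0.81, SE 0.14, FDR 0.0173). In neither gene did the groups overlap, and Insm1 was highest in the crystallin-richest replicate C. Pter, a phosphotriesterase-related enzyme, was at 33.0, 33.1 and 33.7 CPM in WT and 50.0, 53.7 and 55.1 CPM in R90W/+ (log2 ratio 0.67, SE 0.06, FDR 0.000611) and passed the FDR in all 18 alternative settings. So did Foxn2. The FDR was above 0.05 in 13 of 18 alternatives for Marveld3, in 7 for Xk and in 4 for Insm1. It was above 0.05 in 3 for Nipal1 and for Ttyh2, in 2 for Tmem26 and for Nr6a1, and in 1 for Shisa2. With B as the only mutant library, all 62 kept a ratio above 0. That was fixed by the choice, since the groups overlapped in none of the 62.

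Among transcription factors of photoreceptors, 3 of 15 tested rose by FDR (20.0%, beside 0.523% of all genes) and 1 fell (6.67%, beside 2.32%). Otx2, the homeodomain factor that lies upstream of Crx and binds like letters, was at 234, 219 and 219 CPM in WT and 310.2, 317 and 326 CPM in R90W/+ (log2 ratio 0.50, SE 0.05, FDR 0.000799). Its 3 mutant values were nearly equal, and it passed the FDR in all 18 alternatives. Neurod1, a basic helix-loop-helix factor of photoreceptors, was at 341, 350.1 and 359 CPM in WT and 409, 417 and 391 CPM in R90W/+ (log2 ratio 0.21, SE 0.05, FDR 0.0398). Rorb, the nuclear receptor needed for rod fate and cone opsin, was lower, at 445, 521 and 534 CPM in WT and 340.1, 380.5 and 393 CPM in R90W/+ (log2 ratio -0.43, SE 0.08, FDR 0.0212). Nrl, the rod determinant, did not pass the test at 1551, 1419 and 1436 CPM in WT and 1548, 1542 and 1410.0 CPM in R90W/+ (log2 ratio 0.03, SE 0.06, FDR 0.874), nor did Thrb (log2 ratio -0.22, SE 0.07, FDR 0.15), Rxrg (log2 ratio 0.10, SE 0.13, FDR 0.767) or Pias3 (log2 ratio -0.16, SE 0.06, FDR 0.195). The list's median was 0.04 in log2. The FDR of Neurod1 and Rorb was above 0.05 in 9 and 6 of 18 alternatives. It was 0.0756 and 0.0964 with B as the only mutant library, and without WT replicate A it was 0.152 for Neurod1 and 0.0704 for Crx.

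**Figure D2:**
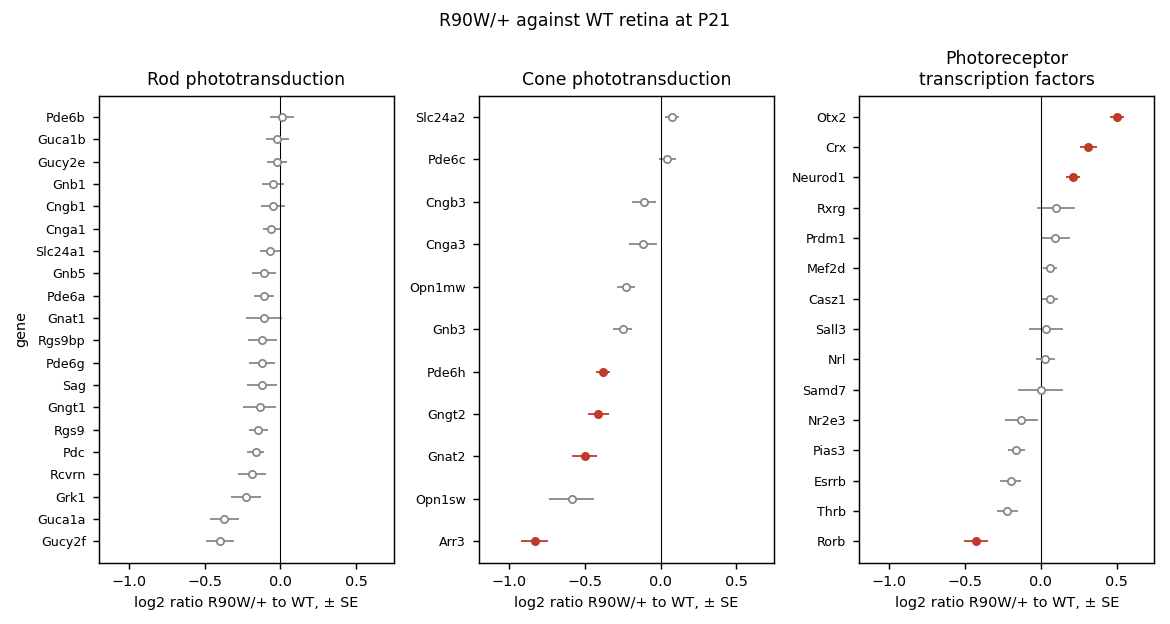
Log2 ratios of R90W/+ to WT at P21 with their SE (limma, 3 libraries a group) for genes tested of 3 lists; filled red points have an FDR of 0.05 or less and open points do not. The rod genes shown lie between -0.40 and 0.01 with none filled, 4 of the 11 cone genes are filled and below 0, and among transcription factors Otx2, Crx and Neurod1 are filled above 0 and Rorb below.

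Rod phototransduction genes did not pass the test, while several cone genes fell. None of the 21 rod genes tested passed the FDR, 5 had an unadjusted p under 0.05, and 20 of 21 ratios were below 0 with a median of -0.12 (all genes, -0.005). Over all genes tested, 2.32% were lower and 0.523% higher by FDR, and 1903 of 11846 had an unadjusted p under 0.05. By library the rod median was -0.03 in A, -0.01 in B and -0.22 in C, so the lower values were mainly those of replicate C.

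Cone phototransduction genes were lower in 4 of 11 (36.4%, beside 2.32% of all genes), higher in 0, with a median of -0.25. By library this median was -0.36, -0.17 and -0.36 in replicates A, B and C. Arr3, the cone arrestin that shuts off the pigment, was at 242, 279 and 285 CPM in WT and 161, 162 and 131 CPM in R90W/+ (log2 ratio -0.83, SE 0.09, FDR 0.00182). Gnat2, the alpha subunit of cone transducin, was at 164, 164 and 156 CPM in WT and 114, 129 and 100.03 CPM in R90W/+ (log2 ratio -0.50, SE 0.08, FDR 0.0128). Gngt2, its gamma subunit, had a log2 ratio of -0.41 (SE 0.07, FDR 0.0148), and Pde6h, the inhibitory subunit of the cone phosphodiesterase, of -0.38 (SE 0.05, FDR 0.00341). In none of these 4 did the groups overlap. The FDR was above 0.05 in 1 of 18 alternatives for Arr3 and for Pde6h, in 4 for Gnat2 (0.0564 without WT replicate A) and in 5 for Gngt2 (0.148 with B as the only mutant library).

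The cone opsins were not called. Opn1sw, the short-wave pigment, was at 377, 423 and 349 CPM in WT and 254, 323 and 199 CPM in R90W/+ (log2 ratio -0.59, SE 0.15, FDR 0.076), and Opn1mw, the middle-wave pigment, at 229, 222 and 229 CPM in WT and 177, 202 and 203 CPM in R90W/+ (log2 ratio -0.23, SE 0.06, FDR 0.0811). In both the 3 mutant libraries lay below the 3 WT libraries without passing the FDR. In a whole retina, fewer cones and less RNA per cone cannot be told apart.

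The cone cell type list of the study behaved likewise, with 5 of 9 tested genes lower by FDR (beside 2.32% of all genes) and a median of -0.50; Arr3, Gnat2, Pde6h and Olfr1372-ps1 are among them. The rod cell type list had 0 of 10 and a median of -0.03. A longer list of rod-enriched genes, defined in the study by their lower level in retinas without Nrl, held 257 tested genes, of which 56 were lower (21.8%, beside 2.32% of all genes) and 5 higher (1.95%, beside 0.523%), with a median of -0.13. It holds 9 of the 26 called genes, namely Zan, Mc1r, Ppara, Gm7616, Gm11961, Rnf207, Plekhg4, Hcls1 and Atp7b. Its counterpart, genes higher in retinas without Nrl, held 357 tested genes with a median of 0.00. Of these, 17 were lower (4.76%, beside 2.32% of all genes) and 11 higher (3.08%, beside 0.523%). Gckr, Kcne2 and Mylk were its called members. The 56 include Rorb and Rdh12 but no gene of rod phototransduction.

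Of 25 genes of the outer segment and cilium, 5 fell by FDR (20.0%, beside 2.32% of all genes) and 0 rose, with a list median of -0.11. Myo7a, the unconventional myosin mutated in Usher syndrome, was at 95.5, 104 and 95.8 CPM in WT and 54.7, 70.5 and 63.7 CPM in R90W/+ (log2 ratio -0.65, SE 0.09, FDR 0.0053), and it passed the FDR in all 18 alternatives. Rpgrip1, a scaffold of the connecting cilium, was at 1229, 1244 and 1412 CPM in WT and 983, 975 and 808 CPM in R90W/+ (log2 ratio -0.49, SE 0.09, FDR 0.0172). Crb1 and Fam161a, further genes of inherited blindness, had log2 ratios of -0.37 and -0.29, with FDR of 0.0265 and 0.0121. The FDR of Rpgrip1, Crb1 and Fam161a was above 0.05 in 4, 6 and 4 of 18 alternatives. It was 0.108 for Crb1 without WT replicate A, and 0.0523 and 0.0517 for Rpgrip1 and Crb1 with B as the only mutant library. In that fit the list median was 0.03.

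The retinoid cycle, which renews the chromophore, had 2 of 13 genes lower by FDR (15.4%, beside 2.32% of all genes). Rdh8 was at 113, 112 and 114 CPM in WT and 86.1, 99.5 and 79.6 CPM in R90W/+ (log2 ratio -0.36, SE 0.07, FDR 0.0353) and Rdh12 at 382, 360.4 and 368 CPM in WT and 323, 323 and 315 CPM in R90W/+ (log2 ratio -0.21, SE 0.04, FDR 0.0344); both are dehydrogenases that reduce all-trans-retinal. Abca4, the outer segment flippase (log2 ratio -0.27, SE 0.07, FDR 0.0812), and Rbp3, the binding protein between retina and pigment epithelium (log2 ratio 0.18, SE 0.07, FDR 0.254), did not pass the test. At the photoreceptor synapse 1 of 19 genes passed (5.26%, beside 2.32%), the calcium channel subunit Cacna1f, at 741, 713 and 770.3 CPM in WT and 609, 652 and 585 CPM in R90W/+ (log2 ratio -0.27, SE 0.06, FDR 0.0353). The FDR of Rdh8, Rdh12 and Cacna1f was above 0.05 in 7, 10 and 8 of 18 alternatives. Among these were the fits without WT replicate A (0.115, 0.133 and 0.116) and with B as the only mutant library (0.206, 0.172 and 0.235).

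Other retinal cell types showed almost no calls. Over all genes tested 2.32% were lower and 0.523% higher by FDR, so lists this short would hold few passing genes in any case. By FDR, 0 of 18 bipolar, 0 of 18 amacrine, 0 of 5 horizontal and 0 of 12 ganglion cell genes passed, with unadjusted p under 0.05 in 7, 2, 0 and 0 of them and medians of -0.12, 0.04, -0.003 and -0.006. An unadjusted p under 0.05 was reached by 1903 of all 11846 genes. Of the 18 bipolar ratios 15 were below 0. Of 14 Müller glia genes 1 passed, Apoe, the lipid carrier, at 534, 492 and 551 CPM in WT and 427, 436 and 459 CPM in R90W/+ (log2 ratio -0.25, SE 0.05, FDR 0.043). Reactive glia genes gave 0 of 8. Among endothelial genes 1 of 14 passed, Cldn5, a tight junction protein, at 12.7, 11.5 and 11.1 CPM in WT and 7.29, 8.80 and 8.98 CPM in R90W/+ (log2 ratio -0.50, SE 0.11, FDR 0.0487), while all 14 ratios were below 0 with a median of -0.20. The summed endothelial level was 380 to 386 CPM in WT and 329 to 349 CPM in R90W/+. The calls of Apoe and Cldn5 were lost in 10 and 13 of 18 alternatives.

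Lists of stress and housekeeping genes gave few calls. The heat shock and unfolded protein response lists each had 8 of 9 ratios above 0, with medians of 0.19 and 0.18 in log2. The summed heat shock level was 1380 to 1430 CPM in WT and 1510 to 1600 CPM in R90W/+, without overlap. Dnajb1 of the heat shock list (log2 ratio 0.28) and Atf4 of the unfolded protein response (0.26) passed upward, 1 of 9 genes in each list (11.1%, beside 0.523% of all genes), and Ier3 (-0.55) and Dusp5 (-0.49) passed downward among 11 immediate early genes (18.2%, beside 2.32%); these 4 were named after their values were seen. Clock (0 of 16), cholesterol synthesis (0 of 18) and mitochondrially encoded genes (0 of 14) had none, with medians of 0.01, -0.06 and -0.14, and all 14 mitochondrial ratios were below 0.

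When R90W/+ replicate B was left out, 29 genes other than crystallins were called higher in place of 0, and 23 of these were also tested in the full comparison. They were found by leaving out B, so high values in A and C beside B are fixed by the choice and given as a description. Their median level relative to WT was 3.65 in A, 1.04 in B and 2.62 in C, and 17 of the 23 were higher in A than in C, while all 10 crystallins were higher in C. The 23 include the basement membrane genes Nid1, Hspg2, Col4a1, Col4a2, Col4a3 and Col4a4 (named, as those that follow, after their values were seen). Nid1, nidogen, was at 13.1, 13.8 and 11.9 CPM in WT and 137, 14.4 and 67.5 CPM in R90W/+ (log2 ratio 1.98, SE 0.63, FDR 0.152). Cd24a, a surface glycoprotein, was at 8.43, 8.64 and 8.37 CPM in WT and 161, 9.22 and 191 CPM in R90W/+. Maf, a factor of lens fibres, was at 23.8, 25.2 and 27.1 CPM in WT and 53.1, 28.4 and 71.1 CPM in R90W/+. In Nid1, Cd24a and Maf, B was at or near WT while A and C stood above. Col4a3 was at 20.7 CPM in B, above all WT libraries (at most 17.1 CPM). It was also higher than WT in E168d2neo/+ (log2 ratio 2.49, FDR 8.87e-07) and E168d2/+ (3.90, FDR 1.76e-05). The crystallin-poor replicates A and B of E168d2neo/+ held 85.8 and 71.9 CPM of Col4a3. Col4a4 was higher in both lines too (1.43, FDR 0.000366, and 1.595, FDR 0.000497). Nid1, Hspg2, Col4a1 and Col4a2 passed the FDR in neither line. Of 15 lens genes other than crystallins on the list, 2 are in the file and 1 was tested. What the 23 genes owe to lens tissue was not tested.

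**Figure D3:**
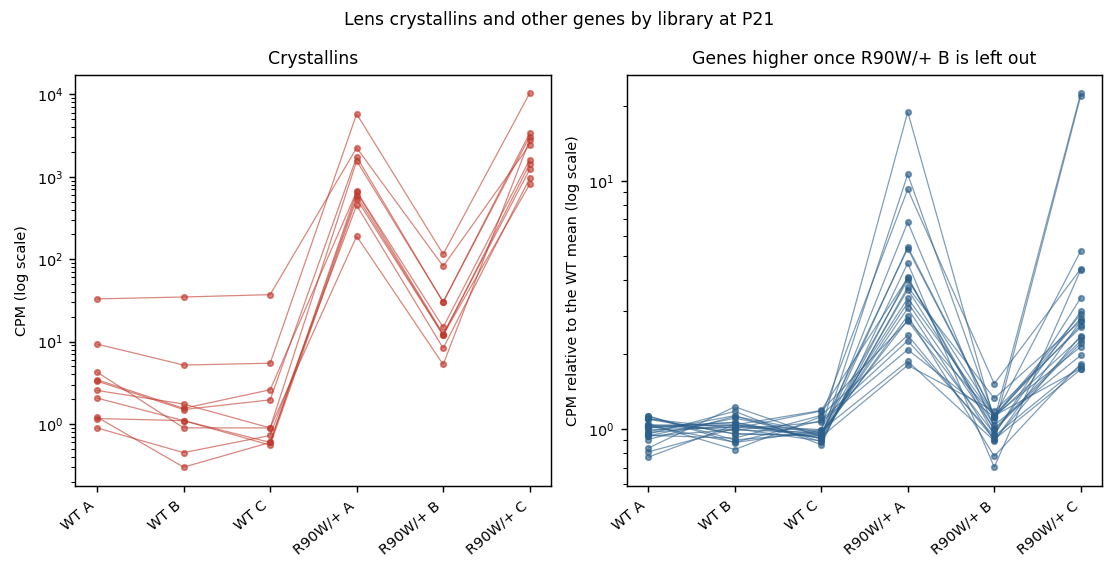
CPM of 10 crystallins (left, log axis) and CPM relative to the WT mean of the 23 genes higher once R90W/+ replicate B was left out (right, log axis) in each P21 library; each line joins the values of 1 gene and the order of libraries has no meaning. Both sets are high in R90W/+ A and C. In B the 23 genes lie near WT by their median (1.04 relative to WT). The crystallins in B lie far below A and C but well above WT, as for Cryaa at 115 CPM beside 5.19 to 9.32 CPM.

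The same mutation at P10 was measured in other animals, so that it serves as an independent look at the called genes. Of the 26, 17 reached 5 CPM at P10. All 17 had a ratio below 0, 13 passed the FDR downward (background 6.26% of 11994 genes) and 5 were called lower (background 0.167%): Zan, Mc1r, Ppara, Gckr and Dock8. These 5 are 19.2% of the genes called lower at P21, and 20 genes were called lower at P10 in all. The median log2 ratio of the 17 was -0.63 at P10. Zan was at 6.96, 8.56 and 7.82 CPM in WT and 1.21, 1.08 and 1.58 CPM in R90W/+ at P10 (log2 ratio -2.51, SE 0.17, FDR 1.74e-06). Gckr was at 16.3, 17.9 and 15.2 CPM and 6.81, 7.39 and 6.36 CPM, with the same ratio at both ages (-1.25 and -1.23).

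Levels in WT were also compared between ages. The 26 were chosen with the same WT libraries at P21, so high values there are favoured by the choice. In 22 of the 26 all WT libraries at P21 lay above all WT libraries at P10, and in 2, Gm15857 and Wdr66, below; over all 11846 genes tested this held for 24.8% and 51.5%. In 9 of the 26 the R90W/+ libraries at P21 lay below all WT libraries at P10. In 8 they lay above, as for Dnahc9, Rnf207, Kcne2 and Krt18. The share of all genes with either order was not counted, and the 26 were chosen for low values in R90W/+ at P21. These counts are a description only.

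Whether the effect of R90W/+ differed between ages was tested as an interaction over 12 libraries. By FDR, 209 of 12315 genes differed (1.7%), 147 with a lower ratio at P21 (1.19%). Of the 26 genes 10 differed, all with the stronger fall at P21; since they were picked for their fall at P21, that direction is partly fixed by the choice. Among the 10 the differences ran from -1.46 (Dnahc9) to -0.49 (Mylk). Dnahc9 was at 14.9, 10.6 and 12.8 CPM in WT and 7.36, 9.73 and 12.1 CPM in R90W/+ at P10, a log2 ratio of -0.40, beside -1.86 at P21 (difference -1.46, SE 0.24, FDR 0.00776). Kcne2 differed by -0.76 (FDR 0.00879) and Rnf207 by -0.65 (FDR 0.022). For Zan, Mc1r and Ppara the difference did not pass the test (FDR 0.204, 0.263 and 0.453), nor did it for Crx (0.332) or Otx2 (0.091). R90W/+ replicate A at P10 had more Xist (2870 CPM) and less Ddx3y (20.2 CPM) than the other P10 libraries of these groups (1320 to 1810 and 31.1 to 39.6 CPM). Without it, 406 genes differed between ages.

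**Figure D4:**
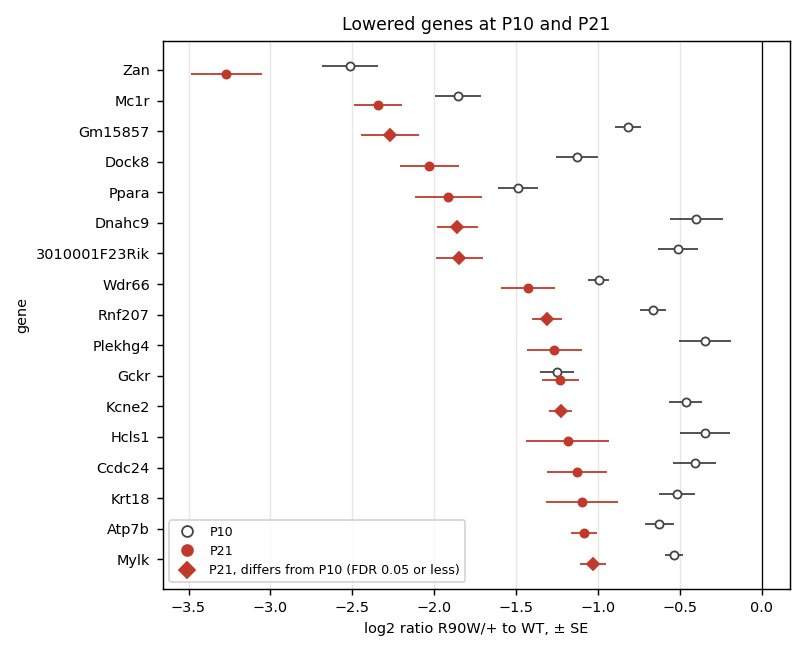
Log2 ratios of R90W/+ to WT with their SE at P10 (open circles) and P21 (filled) for the 17 called genes that reached 5 CPM at P10, ordered by the ratio at P21; diamonds mark genes whose ratio differs between ages at an FDR of 0.05 or less (limma, 12 libraries). All 17 lie below 0 at both ages, Gckr coincides at both, and Dnahc9, 3010001F23Rik and Gm15857 show the widest gaps.

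Most of the 26 genes were also lower than WT in the other heterozygous lines at P21. Their median log2 ratio to WT was -1.55 in E168d2neo/+ and -1.65 in E168d2/+, beside -1.31 in R90W/+. By FDR, 24 and 23 were lower there, and 0 and 1 higher. The WT libraries used to choose the genes are shared, so a fall is favoured, and shares over all genes were not counted. Direct tests against these lines found differences from R90W/+ in part of the called genes. These tests share the R90W/+ libraries in which the genes were found low, so a lower level in R90W/+ is favoured by the choice. Against E168d2neo/+, 25 genes were called, 10 lower in R90W/+ (0.0844% of 11849) and 15 higher (0.127%). Of the 26 genes 16 reached 5 CPM in 1 of these 2 groups. By FDR, 4 of the 16 were lower in R90W/+ (background 1.17%), Dnahc9, Rnf207, 6430562O15Rik and 4831426I19Rik, and 4 were higher (background 1.12%), Zan, Gm15983, Gckr and Kcne2.

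Dnahc9 was lower in R90W/+ than in either line, and its level in E168d2neo/+ did not differ from WT by the test (log2 ratio -0.14, FDR 0.489). It was at 59.0, 64.3 and 53.4 CPM in E168d2neo/+ and 123, 102 and 138 CPM in E168d2/+, beside 18.3, 17.3 and 17.9 CPM in R90W/+ (log2 ratio of R90W/+ to E168d2neo/+ -1.71, FDR 7.3e-06; to E168d2/+ -2.74, FDR 7.89e-06). Rnf207 was at 145, 124 and 148 CPM in E168d2neo/+, with a log2 ratio to WT of -0.60 (FDR 0.000373), and it was lower in R90W/+ than there (log2 ratio -0.71, FDR 0.00537). Zan went the other way, at 1.01, 1.27 and 1.15 CPM in E168d2neo/+, so that R90W/+ kept more of it (2.85, FDR 0.000542). Kcne2 was at 15.7, 14.2 and 13.9 CPM there (0.76, FDR 0.00159). Arr3, at 159, 135 and 145 CPM in E168d2neo/+, did not differ from R90W/+ by the test (0.04, SE 0.09, FDR 0.864).

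**Figure D5:**
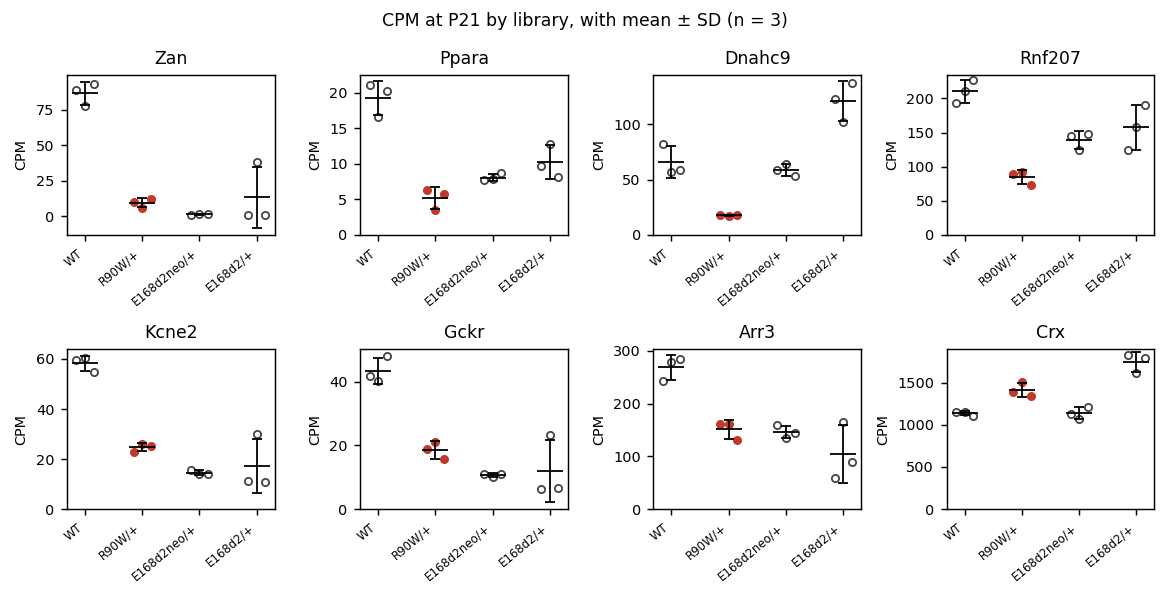
CPM of 8 genes in each P21 library of WT, R90W/+ (filled red), E168d2neo/+ and E168d2/+, with the mean as a bar and the SD as whiskers (n = 3 a group); each panel has its own linear axis. Dnahc9 is low in R90W/+ and not in the other lines, Zan, Kcne2 and Gckr are lower in E168d2neo/+ than in R90W/+, and E168d2/+ replicate B stands above A and C in Zan, Kcne2, Gckr and Arr3.

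Against E168d2/+, 131 genes were called, 57 lower in R90W/+ (0.48% of 11886) and 74 higher (0.623%). Of the 16 genes tested, 4 were lower in R90W/+ by FDR (background 9.86%), Dnahc9, Rnf207, 6430562O15Rik and Ppara, and 0 were higher (background 3.46%). The library labelled E168d2/+ replicate B stood apart from A and C in many of these genes. Without it, 203 genes were called, and of the same 16 genes 3 were lower (Dnahc9, Rnf207 and 6430562O15Rik) and 7 higher in R90W/+ (Zan, Gm15983, Wdr66, Gckr, Kcne2, Krt18 and Atp7b). Crx RNA itself lay between the lines: it was at 1128, 1069.8 and 1212 CPM in E168d2neo/+ and 1829.9, 1611 and 1788 CPM in E168d2/+, and R90W/+ was higher than the first (0.31, FDR 0.0472) and lower than the second (-0.30, FDR 0.0386).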

How the data were processed

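RNA of whole mouse retinas was measured in 30 libraries of 10 groups, 3 each. Per the labels, retinas were pooled and poly(A) RNA was isolated; the labels also name removal of ribosomal RNA, and which applied was not settled. By the submitters' processing notes and the methods, the authors used TopHat2 2.0.5 for alignment (build mm9) and HTSeq 0.6.1p1 for reads per gene, and the deposited CPM express these per library without a further factor. Their edgeR (3.6.8) fold changes, mean levels, p-values and FDR per comparison stand in the same table and were not used. All columns of per-sample CPM were mapped to samples by name.

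For testing, 0.1 was added to each deposited CPM value before log2, and limma 3.58.1 in R 4.3.3 fitted the groups compared, each comparison on its own (eBayes with a variance trend, two-sided, Benjamini-Hochberg adjustment over all genes tested). Genes needed 5 CPM in all 3 libraries of a group. The difference between ages was an interaction over 12 libraries and used the FDR alone. The files held no counts, so no count test was run; depth was estimated from the step between CPM values, which covers counting error only. Nothing in the labels ties the libraries of a group to separate litters, so p-values measure the spread between pools of animals. The steps were tested on simulated data. Promoters came from RefSeq tables and overlaps from the mm9 gene annotation. Files were read with pandas 2.3.3 and numpy 2.4.6 under Python 3.11.15, and figures were drawn with matplotlib 3.10.9.

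Named were Crx, all genes called, the 10 largest rises and falls by FDR without overlap between groups, genes the study measured by qPCR, members of the photoreceptor lists with an FDR of 0.05 or less, and the extremes of the other lists; exceptions are said to be chosen after their values were seen. The members and lists were chosen with earlier results of these data known, so none is independent of them. Date-like strings stood in place of 20 gene symbols, which are left unnamed. Single values of 2 genes that are counted in the lists are not reported here. The alternatives were other amounts added (1 and 0.01 CPM), filters of 1 CPM and none, median log-ratio and quantile scaling, scaling without crystallins, a pooled fit of the P21 groups, the replicate letter as a block, no variance trend, robust eBayes, and each library left out.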

Additional observations from a re-analysis of the deposited data

Results flagged for a closer look

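The effect of R90W/+ differed between P21 and P10 by the interaction test (limma, FDR 0.05 or less) for 18 of the named genes; values are the P21 log2 ratio minus the P10 log2 ratio. Genes called lower at P21 whose ratio was lower at P21 than at P10 were Dnahc9 (-1.46, FDR 0.00776), Gm15857 (-1.45, FDR 0.0026), Gm7616 (-1.43, FDR 0.00818), 3010001F23Rik (-1.33, FDR 0.0032), 6430562O15Rik (-1.24, FDR 0.0197), AA413626 (-1.10, FDR 0.0153), 4831426I19Rik (-0.91, FDR 0.0187), Kcne2 (-0.76, FDR 0.00879), Rnf207 (-0.65, FDR 0.022) and Mylk (-0.49, FDR 0.0222). Of these, Gm7616, 6430562O15Rik, AA413626 and 4831426I19Rik did not pass the filter of 5 CPM at P10. Genes with a larger rise at P21 were Insm1 (0.87, FDR 0.0213), Shisa2 (0.71, FDR 0.0191) and Ttyh2 (0.50, FDR 0.0222).

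Some markers of other cells had ratios above 0 at P10 and below 0 at P21. These were Cldn5 of vessels (-0.65, FDR 0.0293), Apoe of Müller glia (-0.48, FDR 0.00794), Nefh of ganglion cells (-0.49, FDR 0.0263) and Col9a1, a collagen (-0.58, FDR 0.0318); Penk of amacrine cells differed by -0.71 (FDR 0.0475). Cldn5, Apoe, Nefh and Col9a1 had log2 ratios of 0.15, 0.23, 0.38 and 0.39 at P10 and of -0.50, -0.25, -0.11 and -0.19 at P21. The ratios of Apoe, Nefh and Col9a1 passed the FDR at P10, and those of Cldn5 and Apoe at P21. Each of these genes, Penk included, had the lowest P21 ratio of its list. Ratios above and below 0 at P21 numbered 6 and 6 for ganglion cells, 12 and 6 for amacrine cells and 4 and 10 for Müller glia. They numbered 11 and 8 for basement membrane and collagen, and 0 and 14 for endothelial cells. Outliers within groups were not tested, since each group had 3 libraries.

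Crystallins, set aside from the comparisons, made up 1.44%, 0.0322% and 2.80% of the CPM total in R90W/+ P21 replicates A, B and C, each above the 0.00612% of the highest WT P21 library.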

How the results depend on the processing

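The count of 26 genes called lower lay between 23 and 33 in all alternatives but the fit that pooled the P21 groups, which gave 16; leaving out each library in turn gave 23 to 31. The 0 genes called higher became 1 with a filter of 1 CPM and 1 with no filter, 3 in the fit with the replicate block, 3 with R90W/+ P21 replicates A and C left out together (an alternative chosen after seeing the data), and 0 to 29 with each library left out, 29 being the fit without R90W/+ P21 replicate B. By FDR alone the 62 higher genes became 95 when scaled without crystallins, 28 with no variance trend and 39 without A and C, and 14 to 125 with each library left out (14 without WT replicate B, 21 without C, 23 without A, 37 without R90W/+ A, 125 without R90W/+ C). The 275 lower genes became 148 in the pooled fit and 165 without A and C, and 107 to 333 with each library left out (107, 127 and 160 without WT replicate C, B and A). The 209 genes that differed between ages became 121 with no variance trend and 83 to 406 with each library left out; removing 1 library moved this count by over 1.5 times for every P10 library and for WT P21 replicates A and B. Against E168d2neo/+ the 25 calls became 15 in the pooled fit (23 to 32 with each library left out); against E168d2/+ the 131 became 82 with robust eBayes and 58 to 203 with each library left out, with 58, 70 and 67 without E168d2/+ replicate C, E168d2/+ replicate A and R90W/+ replicate A and 203 without E168d2/+ replicate B. The causes were not tested. Of named genes with an FDR of 0.05 or less, 806 of 972 values kept direction and side of the threshold, 166 lost the FDR and 0 reversed; list medians kept 121 of 126 values within the replicate spread. The replicate letters were only a number in common: deviations of same-lettered libraries correlated at -0.001, 0.116 and 0.102, and the replicate block gave 33 lower calls. The edgeR and DESeq2 alternatives were not run, since the rounded CPM did not give back whole reads for all genes. With 3 libraries a group and 94 to 119 reads at 5 CPM, small changes of weak genes may not be detectable.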
